A study of Mus musculus with 12 samples.

Results

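The genes described here encode the translation initiation factors (eIF1 to eIF6) and the elongation factors (eEF1 and eEF2) of the mouse. They were picked by a rule on names, chosen with earlier results of these data known. It took protein-coding genes whose symbol begins with Eif1, Eif2, Eif3, Eif4, Eif5, Eif6, Eef1 or Eef2, without pseudogenes. The rule found 67 of the 51467 genes in the count table and set aside 8 processed pseudogenes and 1 long non-coding gene with such symbols. Of the 67, 65 passed a minimum of 3 CPM (read counts scaled to library size) in 3 or more libraries and were tested together with 14731 genes in all. The exceptions were Eif4e1b, the oocyte-type cap-binding protein, with at most 4 reads in any library, and Eef1akmt3, a methyltransferase of eEF1A, with 2 to 20 reads.

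The study followed naive mouse embryonic stem cells (ESCs) into epiblast-like cells (EpiLCs) and asked how much of the change in mRNA came from transcription and how much from mRNA stability. ESCs were grown in 15% serum with LIF and the 2i kinase inhibitors, and EpiLCs were the same reporter line (V6.5 cells carrying miR-290-mCherry and miR-302-GFP) collected about 56 h after LIF and 2i were withdrawn. All cells received 4-thiouridine (4sU, 500 µM) for 30 min, and their RNA was split into ribosomal RNA-depleted total RNA and captured 4sU-labelled RNA, called nascent RNA here. There were 3 libraries each of ESC total, EpiLC total, ESC 4sU and EpiLC 4sU, and the study describes its replicates as biological. The labels do not say whether they were separate cultures, and if they were not, p-values measure only technical spread.

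Initiation factors bring the ribosome to the start codon. The eIF4F complex binds the mRNA cap and unwinds the leader, eIF3 joins it to the small ribosomal subunit, and eIF2 delivers the initiator tRNA and is recharged with GTP by the exchange factor eIF2B. Stress kinases that phosphorylate eIF2 block eIF2B, and the eIF4E-binding proteins block eIF4F when mTOR is inactive. Elongation factors eEF1A and eEF2 then bring aminoacyl-tRNA to the ribosome and move the ribosome along the mRNA. Several of these factors, eEF1A and eEF2 among them, are textbook carriers of a 5′ terminal oligopyrimidine (TOP) tract, a run of C and T at the transcription start through which mTOR controls the translation of their mRNAs.

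Gene reads numbered 9300845 to 21975684 in a total RNA library and 3097693 to 5385644 in a 4sU library, and counting error was therefore larger for nascent RNA. The labels were checked against markers: in total RNA all 10 naive pluripotency genes fell in EpiLCs and all 5 formative genes rose, by the test described below. Of the 6 fibroblast markers, summed levels were 11.3 to 15.5 CPM in ESCs and 11.6 to 16.3 CPM in EpiLCs, and Postn was at 0 in ESCs. Of the 5 primitive endoderm markers, sums were 3.30 to 9.44 and 16.4 to 18.4 CPM, with Sox17 lower and Gata4 and Dab2 higher in EpiLCs, as Col1a2 was higher and Pdgfrb lower among the fibroblast genes; their part in the results was not tested. Both ESC replicate 3 libraries stood apart from the other ESC libraries on the third principal component (scores of -36.2 and -41.5 against 9.50 to 28.3), and results that lost their call or moved by more than 1.5 times without them are given both ways.

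The translation factors as a whole took a like share of reads in both cell types. It was 2.49% ± 0.0717 in ESC total libraries and 2.5% ± 0.0418 in EpiLC total libraries (SD, n = 3), and 1.67% ± 0.0698 and 1.71% ± 0.0249 of the 4sU reads. Eef1a1 and Eef2 alone made up 30.7% to 32.0% of these reads in ESC total RNA and 34.6% to 35.3% in EpiLC total RNA. Per kilobase of exon, the level in ESC total RNA ran from 0.214 CPM per kb for Eef1a2 to 2070.0 CPM per kb for Eef1a1 among tested members, with a median of 67.4 against 7.99 over all tested genes.

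In total RNA, 11 of 65 members changed by limma-voom, which here means an adjusted p below 0.05 together with a log2 change beyond 1 in size, 4 up and 7 down, while 27.6% of all tested genes did so. The risers were Eif4e3, Eef1a2, Eif4g3 and Eef1akmt1, and the fallers were Eef2k, Eif2s2, Eif2b5, Eef2kmt, Eif2b4, Eif4a2 and Eif4e2. In bulk RNA, fewer cells with a transcript and less of it per cell cannot be told apart. By adjusted p alone 14 members rose (31.4% of all tested genes did) and 27 fell (32.1%), with 24 not passing, so the members passed the test about as often as genes in general but mostly by small amounts. The median absolute log2 change was 0.34 for members and 0.53 over all tested genes. Among the risers, Eif4e3 and Eef1a2 passed the filter on low values through EpiLC libraries alone, so a difference was built into their being tested. ESC and EpiLC libraries did not overlap for 68.6% of all tested genes in total RNA and 60.7% in nascent RNA, against 70.8% and 63.1% of the members, so a lack of overlap by itself sets no gene apart. Without both ESC replicate 3 libraries, 11 members passed both thresholds, and 14 rose and 34 fell by adjusted p alone. The shares of all tested genes in that fit are not given, so these counts have no background beside them.

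Nascent RNA gave 8 members past both thresholds, 4 up (Eif4e3, Eif4g3, Eef1akmt1 and Eif1ax) and 4 down (Eef2k, Eef2kmt, Eif2s2 and Eif2ak2), against 25.5% of all tested genes. By adjusted p alone 19 rose (23.7% of all genes) and 20 fell (28.8%). Members that passed by adjusted p in both RNAs went the same way in both, 9 up (13.8%) and 19 down (29.2%), while 20.1% of all tested genes were higher in both, 22.1% lower in both and 0.591% called in opposite directions. The median log2 change of the members was -0.10 in total RNA and 0.02 in nascent RNA, beside 0.02 and -0.09 over all tested genes.

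**Figure D1:**
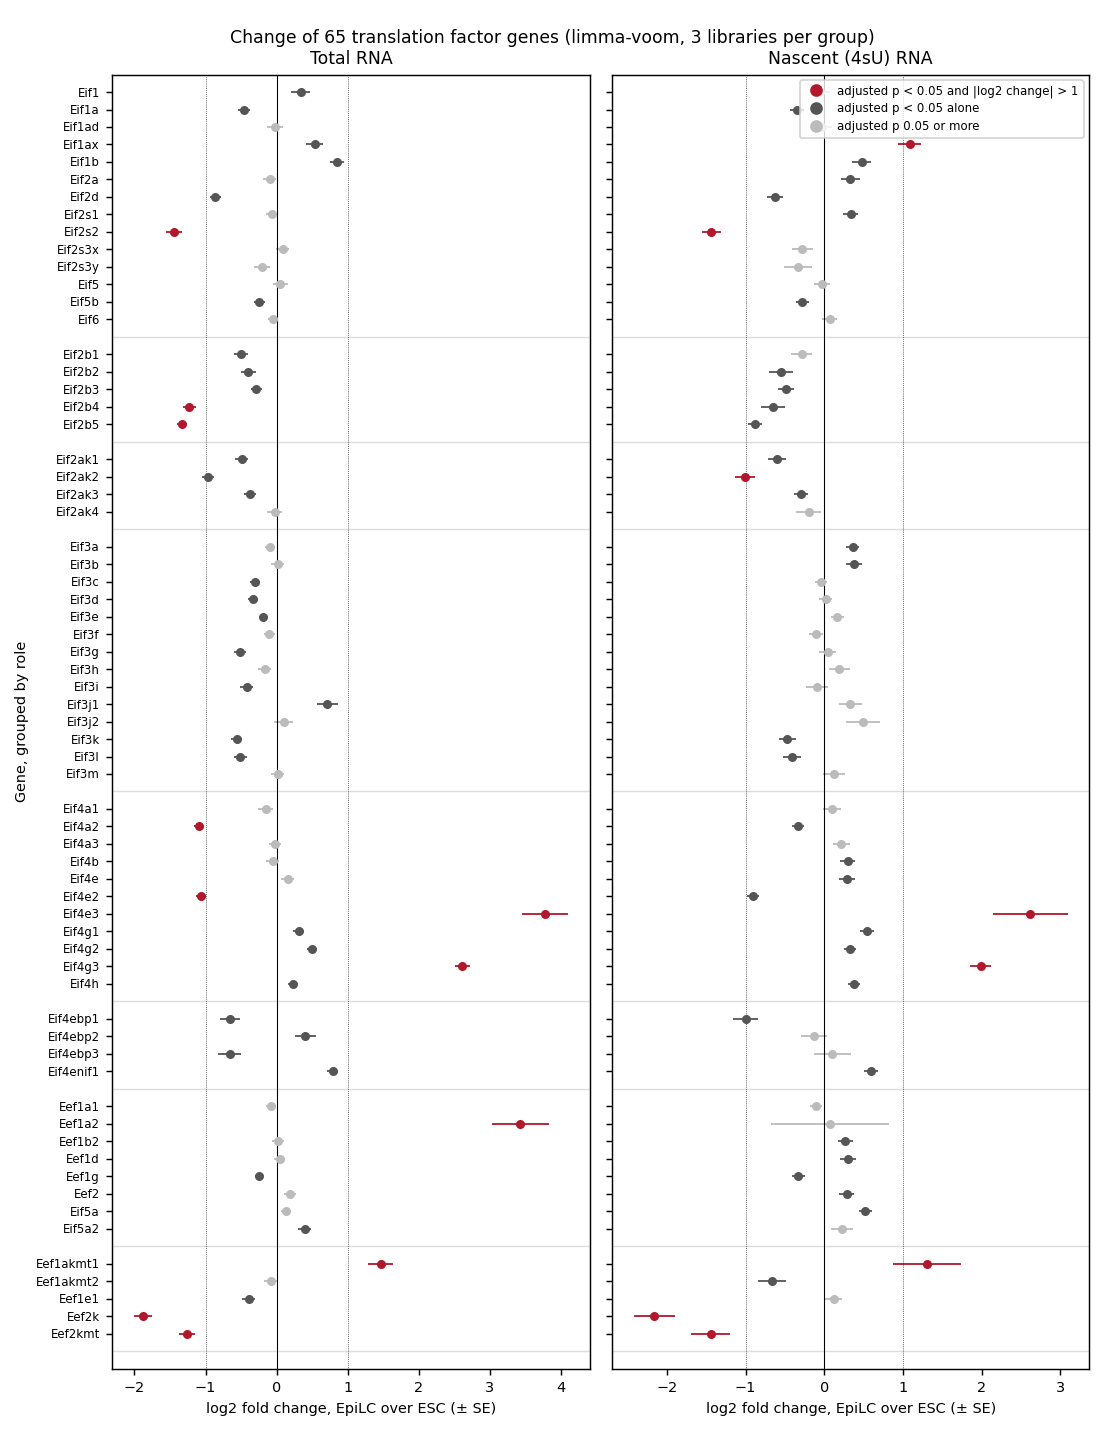
Log2 fold change of each of the 65 tested genes in total RNA (left) and nascent RNA (right), EpiLC over ESC, with its standard error, grouped by role in the order of the text. Red points passed adjusted p under 0.05 and a log2 change over 1, dark grey points adjusted p alone; most points lie between -1 and 1, and Eif4e3, Eef1a2 and Eif4g3 stand furthest right in total RNA.

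Sequence at the start site was examined because TOP tracts are a known mark of this gene class. RefSeq promoters (build GRCm38.p6, from 250 bases before to 50 bases from the annotated start on) were found for 51 of the 67 members; Eef1akmt1, Eef1akmt3, Eef1d, Eef1g, Eif1a, Eif2b3, Eif3e, Eif3h, Eif3i, Eif3j2, Eif4e1b, Eif4e3, Eif4ebp1, Eif4ebp3, Eif4g2 and Eif6 had none in the table. A run of at least 5 C or T that begins with C exactly at the annotated start was present in 2 of 51 members (3.92%), Eif2s3x and Eif3f, and in 3.18% of the 10114 tested genes with an entry. Allowing the first C within 10 bases of the start gave 18 of 51 (35.3%) against 37.1%; these shares were not tested. The windows below run from 10 bases before the annotated start to 20 bases from it on, 5′ to 3′, with the tract in capitals, and show how closely or loosely the annotated start sits on it. Eif3f and Eif2s3x carry the tract on the start itself (within runs that begin 4 bases and 1 base upstream), Eef1a1 and Eif2b5 reach it from upstream, and the Eef2 window holds pyrimidines near its 3′ end, outside the searched positions.
Eif3f, chr7:108934405-108934434, plus strand: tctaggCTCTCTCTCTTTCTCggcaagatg
Eif2s3x, chrX:94212632-94212661, minus strand: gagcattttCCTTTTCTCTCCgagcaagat
Eef1a1, chr9:78481705-78481734, minus strand: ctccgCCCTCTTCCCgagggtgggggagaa
Eif2b5, chr16:20498807-20498836, plus strand: CTCTTTCTCTCCCTgcaactacaccttcgc
Eef2, chr10:81176621-81176650, plus strand: aaggccgggcgttgacgtcagcggtctctt

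Promoter motifs were counted over the same 300 bases, on both strands. The E-box CACGTG, the site of MYC and related factors, was present in 12 of 51 members (23.5%), in 12% of tested genes with an entry and in 8.09% of all genes of the promoter table. CCGGAAG, the core of sites bound by ETS factors, was present in 17 of 51 (33.3%), against 20.3% and 9.93%. The palindromic NRF1 site was present in 1 of 51 (1.96%), Eif3k, against 2.4% and 1.07%. These motifs were picked with the promoter letters in view and the shares were not tested. Members with an E-box were Eef2, Eef2k, Eif1b, Eif3a, Eif3f, Eif3k, Eif4a1, Eif4e, Eif4g1, Eif4h, Eif5a and Eif5a2; of these 4 rose and 2 fell in total RNA by adjusted p, against 7 and 18 of the 39 others. Of the members with the ETS core 5 rose and 8 fell, against 6 and 12 of the 34 others. Over all tested genes 31.4% rose and 32.1% fell. Neither split by motif was tested, and how other genes with these motifs moved was not counted. The windows below show the E-box in capitals in genes of the cap-binding complex and of elongation, and the ETS core in Eif2b4 and Eif4e2, which are described below.
Eif4e, chr3:138527028-138527057, plus strand, 228 bases before the start: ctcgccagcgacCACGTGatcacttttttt
Eif4e, chr3:138527192-138527221, plus strand, 64 bases before the start: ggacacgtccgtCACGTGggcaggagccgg
Eif4g1, chr16:20672661-20672690, plus strand, 54 bases before the start: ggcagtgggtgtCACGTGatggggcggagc
Eef2, chr10:81176576-81176605, plus strand, 43 bases before the start: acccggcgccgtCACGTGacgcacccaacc
Eef2k, chr7:120842788-120842817, plus strand, 31 bases before the start: cccggggacggcCACGTGagcccgggcgtg
Eif2b4, chr5:31193120-31193149, minus strand, 1 base past the start: cccagtgcacgCCGGAAGttgtagtccgct
Eif4e2, chr1:87213905-87213934, plus strand, within 23 bases of 3 annotated starts: tcgccagccaaCCGGAAGtagccgggccct

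Among the factors of the ternary complex and of start codon selection (14 members), the β subunit of eIF2 fell most, and no other eIF2 subunit passed the test in total RNA. Eif2s2 (chr2:154871410-154892935, minus strand) stood at 536, 547 and 719 CPM in ESC total RNA and at 212, 212 and 227 CPM in EpiLC total RNA, with no overlap. Its log2 change was -1.45 ± 0.11 in total RNA (SE, adjusted p = 4.61e-08) and -1.44 ± 0.13 in nascent RNA (adjusted p = 4.60e-07); without both ESC replicate 3 libraries, whose total library held the highest value, the total change was -1.33. The α subunit gene Eif2s1 changed by -0.06 ± 0.08 in total RNA (adjusted p = 0.53) and rose by 0.34 ± 0.10 in nascent RNA (adjusted p = 0.0102, with a change of 0.20 without both ESC replicate 3 libraries), and the γ subunit genes Eif2s3x and Eif2s3y by 0.09 ± 0.09 (adjusted p = 0.41) and -0.20 ± 0.11 (adjusted p = 0.13) in total RNA. Per kilobase, Eif2s2 stood at 236 ± 40.3 CPM per kb in ESCs and Eif2s1 at 95.6 ± 5.34 CPM per kb (SD, n = 3), while in EpiLCs they lay close together at 85.4 ± 3.40 and 91.6 ± 2.91 CPM per kb. The X and Y copies of the γ subunit share much of their sequence, and unique alignment makes the reads of both uncertain.

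Eif1ax (chrX:159372178-159389928, plus strand), which encodes the scanning factor eIF1A, rose in both RNAs. Its nascent level was 76.3, 90.9 and 71.6 CPM in ESCs and 158, 165 and 188 CPM in EpiLCs, a log2 change of 1.09 ± 0.15 (adjusted p = 2.53e-05), and its total level went from 256, 267 and 186 CPM to 323, 355 and 345 CPM, a change of 0.54 ± 0.12 (adjusted p = 0.00112). The libraries did not overlap in either RNA, and the nascent change was 0.99, under the fold threshold, without both ESC replicate 3 libraries. Eif1a, a copy of the same factor, went the other way, with -0.46 ± 0.09 in total RNA (adjusted p = 0.00026); the copies are close in sequence, so the split of reads between them is uncertain. Eif2d, which can deliver tRNA without eIF2, fell by 0.86 on the log2 scale (adjusted p = 1.89e-07). Eif2a did not pass in total RNA (adjusted p = 0.379) but rose by 0.33 ± 0.12 in nascent RNA (adjusted p = 0.035). Without both ESC replicate 3 libraries its nascent change was 0.20. Eif1b, a paralog of the start codon factor eIF1, rose from 17.3, 19.8 and 15.3 CPM to 31.1, 33.4 and 30.6 CPM in total RNA (0.84 ± 0.10, adjusted p = 3.93e-06). The group also counts Eif1ad and Eif6, which its name does not cover, and neither passed in either RNA. In all, 3 members of this group rose and 4 fell in total RNA by adjusted p, and 7 did not pass. Over all tested genes 31.4% rose and 32.1% fell.

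All 5 eIF2B subunit genes fell in total RNA by adjusted p, and they did so under each of the 20 other settings tried. Over all tested genes 32.1% fell by adjusted p in the main fit. The largest falls were in the catalytic ε subunit and the δ subunit. Eif2b5 (ε, chr16:20498817-20509955, plus strand) went from 698, 665 and 763 CPM in ESC total RNA to 263, 288 and 289 CPM in EpiLC total RNA (-1.33 ± 0.07, adjusted p = 1.31e-09), and in nascent RNA from 143, 163 and 161 CPM to 83.6, 85.2 and 83.4 CPM (-0.88 ± 0.09, adjusted p = 2.54e-06). Eif2b4 (δ, chr5:31187558-31193430, minus strand) went from 104, 95.3 and 84.0 CPM to 44.4, 38.8 and 38.3 CPM in total RNA (-1.23 ± 0.10, adjusted p = 4.56e-08) and in nascent RNA from 33.5, 34.9 and 38.2 CPM to 24.7, 21.8 and 20.5 CPM (-0.65 ± 0.15, adjusted p = 0.00212). Neither gene's ESC and EpiLC libraries overlapped. The α, β and γ genes Eif2b1, Eif2b2 and Eif2b3 changed by -0.50, -0.40 and -0.28 in total RNA (highest adjusted p 0.00376). Although the subunits form 1 complex, their mRNA levels were uneven: Eif2b5 stood at 222 ± 15.5 CPM per kb in ESCs, against 21.8 to 49.3 CPM per kb for the other subunits, and at 88.0 ± 4.69 against 16.9 to 34.8 CPM per kb in EpiLCs.

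Of the 4 kinases that phosphorylate eIF2, 3 fell in total RNA and 3 in nascent RNA by adjusted p. Over all tested genes 32.1% and 28.8% did. Eif2ak2 encodes PKR, the kinase that senses double-stranded RNA (chr17:78852564-78882573, minus strand), and moved most, from 48.3, 52.6 and 52.4 CPM to 25.9, 24.6 and 28.2 CPM in total RNA (-0.96 ± 0.09, adjusted p = 1.94e-07) and from 38.2, 37.8 and 34.2 CPM to 17, 19.1 and 19 CPM in nascent RNA (-1.005 ± 0.13, adjusted p = 1.68e-05). Its groups did not overlap, but its nascent change sat on the fold threshold and passed it in 7 of 20 other settings, with values from -1.07 to -0.88. The heme-regulated kinase Eif2ak1 (HRI) and the endoplasmic reticulum kinase Eif2ak3 (PERK) fell by 0.49 and 0.37 in total RNA on the log2 scale (adjusted p = 0.000171 and 0.0012). The amino acid sensor Eif2ak4 (GCN2) changed by -0.03 ± 0.11 (adjusted p = 0.83).

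The eIF3 scaffold (14 members) moved little, and the largest change in total RNA was 0.71 on the log2 scale. By adjusted p 1 member rose (31.4% of all tested genes did) and 7 fell (32.1%). The fallers were Eif3c, Eif3d, Eif3e, Eif3g, Eif3i, Eif3k and Eif3l, by 0.19 to 0.56 on the log2 scale. In nascent RNA 2 members rose (Eif3a and Eif3b) and 2 fell (Eif3k and Eif3l), beside 23.7% and 28.8% of all tested genes. Among the 7 fallers, the difference between total and nascent change passed its own test for Eif3g alone. Eif3j1, which encodes the loosely bound j subunit, was the riser, from 9.62, 6.85 and 8.75 CPM to 12.7, 13.5 and 14.1 CPM (0.71 ± 0.15, adjusted p = 0.000612), without overlap. Its level of 1.55 CPM per kb in ESCs was the lowest of the complex, whose median was 228 CPM per kb and whose highest member was Eif3k at 342 CPM per kb. Eif3j1 and Eif3j2 are near-identical copies, so reads that match both were not counted for either.

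Of the cap-binding complex eIF4F and its helper proteins, 11 of 12 members were tested, and the minor forms of eIF4E and eIF4G changed most. The group also counts Eif4a3, which its name does not cover and which passed in neither RNA. Eif4e3 (chr6:99625135-99666771, minus strand), a cap-binding paralog of eIF4E, went from 0.579, 0.956 and 0.590 CPM in ESC total RNA to 8.37, 12.7 and 9.64 CPM in EpiLC total RNA, the largest fitted change among the members (3.78 ± 0.33, adjusted p = 1.41e-07), for a gene that passed the filter on low values through EpiLC libraries alone. In nascent RNA it went from 0.613, 0.716 and 1.36 CPM to 6.13, 6.57 and 3.86 CPM (2.62 ± 0.48, adjusted p = 0.000374), and the groups did not overlap in either RNA. These levels are low: the ESC total values rest on 6 to 19 reads per library and the ESC nascent values on 3 to 5 reads.

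Eif4g3 (chr4:137993022-138208508, plus strand) encodes eIF4GII, a second form of the eIF4F scaffold. It stood at 21.2, 20.3 and 27.9 CPM in ESC total RNA and at 132, 140.1 and 140.1 CPM in EpiLC total RNA, a 6.11-fold rise (2.61 ± 0.11 on the log2 scale, adjusted p = 8.13e-11). Nascent RNA went from 35.4, 27.9 and 35.0 CPM to 124, 128 and 133 CPM (1.99 ± 0.13, adjusted p = 2.75e-08). No library of one cell type reached the range of the other. Eif4g1, the main scaffold gene, and its relative Eif4g2 rose by less in total RNA. Eif4g1, at 1150 to 1221 CPM in ESCs and 1382 to 1542 CPM in EpiLCs, rose by 0.31 ± 0.08 (adjusted p = 0.00364). The rise of Eif4g2 was 0.49 ± 0.07 (adjusted p = 1.67e-05).

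Eif4e2 and Eif4a2 fell. Eif4e2 (chr1:87213914-87240488, plus strand) encodes 4EHP, which binds caps without recruiting the scaffold and is known as a repressor of translation. Its total level went from 294, 280.1 and 288 CPM to 139, 134 and 139 CPM (-1.06 ± 0.07, adjusted p = 8.15e-09) and its nascent level from 261, 289 and 264 CPM to 136, 156 and 144 CPM (-0.90 ± 0.08, adjusted p = 3.44e-07), without overlap. The total change was -0.98 when libraries were scaled by their totals alone. Eif4a2 (chr16:23107444-23114117, plus strand), a paralog of the helicase Eif4a1 whose introns host small nucleolar RNAs, went from 998, 897 and 1005 CPM to 463, 474 and 419 CPM in total RNA (-1.09 ± 0.07, adjusted p = 1.18e-08). Its nascent level was higher than its total level and fell less, from 2838, 3182 and 2827 CPM to 2297, 2380.0 and 2334 CPM (-0.33 ± 0.07, adjusted p = 0.00145). Eif4e itself was at 112, 114 and 105 CPM in ESC total RNA and at 122 to 124 CPM in EpiLC total RNA (0.15 ± 0.09, adjusted p = 0.155). Its nascent RNA rose by 0.29 ± 0.10 (adjusted p = 0.0279). Without both ESC replicate 3 libraries this nascent change was 0.15 and did not pass (limma-voom, adjusted p = 0.0972). Eif4a1 was at 371, 371 and 345 CPM and at 326, 325 and 328 CPM (-0.15 ± 0.10, adjusted p = 0.219); it has processed copies in the genome, and only uniquely aligned reads were counted. Of the helpers, Eif4h, which aids the helicase, rose by 0.23 in total RNA (adjusted p = 0.00738) and Eif4b, its relative, by 0.30 in nascent RNA (adjusted p = 0.021, with a change of 0.16 without both ESC replicate 3 libraries).

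**Figure D2:**
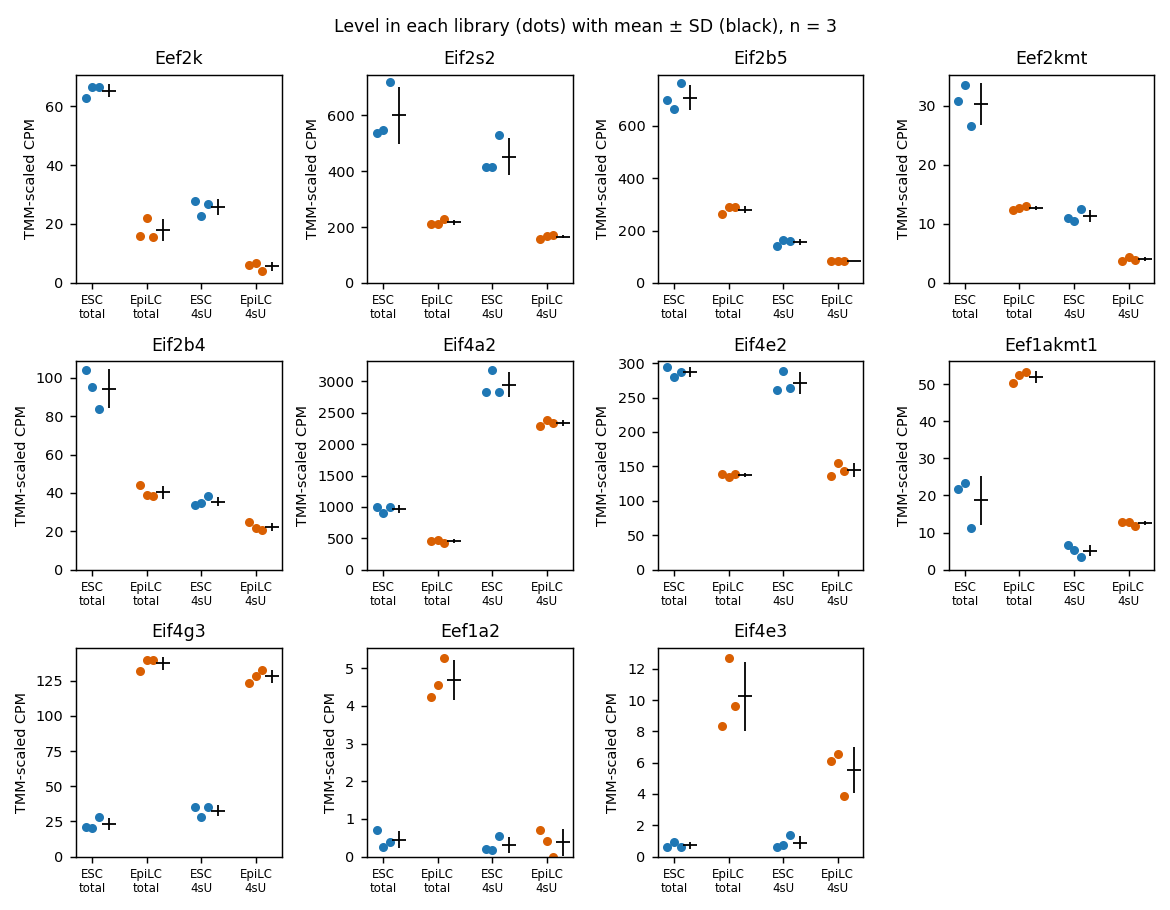
TMM-scaled CPM of the 11 genes past both thresholds in total RNA, in each ESC (blue) and EpiLC (orange) library of total and 4sU RNA, with mean and SD in black (n = 3) on axes that start at 0. ESC and EpiLC dots do not overlap in total RNA for any of the 11, and in 4sU RNA Eef1a2 is the gene whose dots overlap.

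The eIF4E-binding inhibitors (4 members) were split, with 2 up and 2 down in total RNA by adjusted p. Over all tested genes 31.4% rose and 32.1% fell. Eif4enif1, the eIF4E transporter that carries eIF4E to the nucleus and to P-bodies, rose from 50.4, 53.2 and 48.4 CPM to 87.9, 84.8 and 91.0 CPM (0.79 ± 0.08, adjusted p = 5.23e-07), and its nascent RNA rose by 0.59 ± 0.09 (adjusted p = 4.90e-05). Eif4ebp2 rose by 0.40 ± 0.15 (adjusted p = 0.028), or by 0.58 without both ESC replicate 3 libraries, and passed in 14 of 20 other settings; its ESC replicate 3 value of 101.7 CPM overlapped the EpiLC range of 95.4 to 102.3 CPM. Eif4ebp1, the main mTOR-regulated inhibitor, fell from 425, 433 and 545 CPM to 273, 287 and 326 CPM in total RNA (-0.65 ± 0.14, adjusted p = 0.000869), and its nascent RNA fell by 0.999 on the log2 scale (adjusted p = 0.000118), just short of the fold threshold. ESC replicate 3 held its highest value in both RNAs, and without both ESC replicate 3 libraries its changes were -0.55 and -0.83. Eif4ebp3 fell by 0.66 on the log2 scale (adjusted p = 0.00222) at a level of 6.73 to 12.5 CPM. The groups did not overlap for Eif4enif1 or Eif4ebp1 in either RNA.

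The elongation factors themselves (8 members) moved little in total RNA, apart from 1 isoform. By adjusted p 2 rose and 1 fell in total RNA, beside 31.4% and 32.1% of all tested genes. In nascent RNA 4 rose and 1 fell, beside 23.7% and 28.8%. Eef1a1 was at 3807, 3672 and 3662 CPM in ESC total RNA and at 3503, 3574 and 3501 CPM in EpiLC total RNA (-0.07 ± 0.07, adjusted p = 0.368). Eef2, the translocase, was at 5322, 4972 and 4374 CPM and at 5499, 5586 and 5600.3 CPM (0.19 ± 0.09, adjusted p = 0.0685), and its nascent RNA rose by 0.28 ± 0.10 (adjusted p = 0.0233). Of the exchange factor subunits, Eef1b2 and Eef1d changed by 0.02 and 0.04 in total RNA (adjusted p = 0.86 and 0.66) and Eef1g fell by 0.24 (adjusted p = 0.0051). In nascent RNA Eef1b2 and Eef1d rose by 0.26 ± 0.10 and 0.30 ± 0.10 (adjusted p = 0.031 and 0.017). Eef1g fell there by 0.33 ± 0.08 (adjusted p = 0.00299). Eif5a rose by 0.52 ± 0.08 in nascent RNA (adjusted p = 0.000137) and changed by 0.13 ± 0.07 in total RNA (adjusted p = 0.138). Eef1a1 has many processed copies in the genome, and reads that match several places were not counted.

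Eef1a2 (chr2:181147653-181157014, minus strand), the eEF1A isoform typical of muscle and neurons, rose in total RNA from 0.695, 0.252 and 0.393 CPM to 4.24, 4.55 and 5.27 CPM (3.43 ± 0.40, adjusted p = 3.44e-06), or from 4 to 12 reads per library to 38 to 53. It was tested because the EpiLC total libraries, in which it was high, brought it past the filter on low values. In nascent RNA it had 1, 1 and 2 reads in ESCs and 3, 2 and 0 reads in EpiLCs, and the fitted change was 0.07 ± 0.75 (adjusted p = 0.946). The total RNA groups did not overlap and the nascent groups did. Even after its rise it stood at 2.25 ± 0.253 CPM per kb, against 1966 ± 23.1 CPM per kb for Eef1a1. Eif5a2, the second form of the hypusine-carrying factor eIF5A, rose by 0.40 ± 0.09 in total RNA (adjusted p = 0.00176), from 44.5, 48.1 and 57.4 CPM to 65.9, 64.7 and 64.2 CPM.

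Among the enzymes that modify the elongation factors, 3 of the 5 tested members of their group passed both thresholds in total RNA. Over all tested genes 27.6% did. Eef2k (chr7:120842831-120907450, plus strand) encodes the kinase that phosphorylates and inhibits eEF2. It fell from 62.8, 66.6 and 66.7 CPM to 16, 22.1 and 15.5 CPM in total RNA, a 3.68-fold drop (-1.88 ± 0.12, adjusted p = 9.89e-09), and from 27.8, 22.5 and 26.8 CPM to 6.13, 6.78 and 3.86 CPM in nascent RNA, a 4.46-fold drop (-2.16 ± 0.26, adjusted p = 1.13e-05). These were the largest falls among the members in either RNA.

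Eef2kmt (chr16:5244152-5255983, minus strand), which methylates a lysine of eEF2, fell from 30.8, 33.5 and 26.5 CPM to 12.4, 12.7 and 13 CPM in total RNA (-1.26 ± 0.11, adjusted p = 1.82e-07), and from 11, 10.6 and 12.5 CPM to 3.77, 4.45 and 3.86 CPM in nascent RNA (-1.44 ± 0.25, adjusted p = 0.000233). Eef1akmt1 (chr14:57549598-57571569, minus strand), which methylates eEF1A, rose from 21.7, 23.3 and 11.2 CPM to 50.2, 52.4 and 53.4 CPM (1.47 ± 0.18, adjusted p = 4.92e-06), and its nascent RNA rose from 6.54, 5.19 and 3.52 CPM to 13, 12.9 and 11.9 CPM (1.30 ± 0.43, adjusted p = 0.0205). No groups overlapped. ESC replicate 3 held the lowest Eef1akmt1 value in both RNAs, and without both ESC replicate 3 libraries the changes were 1.20 and 1.09. The nascent call of Eef1akmt1 was lost without ESC 4sU replicate 2 (adjusted p = 0.0602) and without ESC 4sU replicate 3 (adjusted p = 0.0633). Eef1e1, a scaffold of the aminoacyl-tRNA synthetase complex, fell by 0.39 on the log2 scale in total RNA (adjusted p = 0.0018).

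Paralog families were compared by the share of length-scaled total RNA that 1 member took, with an exact two-sided permutation test of 3 against 3 libraries, which cannot give a p below 0.1. The share of Eif4e2 among Eif4e, Eif4e2 and Eif4e3 went from 63.7% ± 1.29 in ESC libraries to 39.5% ± 1.20 in EpiLC libraries, and that of Eif4e3 was 0.469% ± 0.144 and 8.75% ± 1.79. Eif4a2 took 59.7% ± 2.25 of Eif4a1 and Eif4a2 in ESCs and 43.4% ± 1.72 in EpiLCs (SD, n = 3). Eif4g3 took 1.15% ± 0.172 and 5.28% ± 0.131 of Eif4g1 and Eif4g3, Eif1b took 32.4% ± 3.12 and 40.8% ± 2.44 of Eif1 and Eif1b, and Eef1a2 took 0.0103% ± 0.00499 and 0.114% ± 0.0133 of Eef1a1 and Eef1a2.

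These 6 shares did not overlap between cell types (exact permutation p = 0.1, adjusted p = 0.133 over 8 shares), and each was at the smallest p the design allows. Eif4e3 and Eef1a2 passed the filter on low values through EpiLC libraries alone, so a difference in their shares was built in. Eif4e2 and Eif4e3 are parts of the same family total, so their shares are not separate results. The levels of 68.6% of all tested genes did not overlap in total RNA either. Eif5a2 took 4.18% ± 0.660 and 4.90% ± 0.227 of Eif5a and Eif5a2 (exact permutation p = 0.3), and Eif2s3y took 78.7% ± 2.69 and 75.4% ± 2.02 of the γ subunit pair (exact permutation p = 0.2), with overlapping libraries for both. The direction of these differences and the overlap of the libraries were the same with exonic length, with no length scaling and with the length of 1 annotated transcript per gene, a setting added after seeing the data. Which member was the larger part was not: Eif4a2 took 43.4% of its pair in EpiLCs with exonic length, 58.0% with no scaling and 52.6% with transcript length, and Eif4e2 took 39.5%, 50.8% and 72.6% of its family. Length also set the size of some differences: the rise of the Eif4e3 share was 8.29 percentage points with it and 3.60 without it, that of the Eif4g3 share 4.14 and 6.64, and the difference for Eif5a2 0.728 and 1.40. All are shares of uniquely aligned reads. Eif4a1, Eif1 and Eef1a1 have processed copies in the genome, and Eif2s3x and Eif2s3y share much of their sequence. Reads lost in this way can raise or lower a share, so the percentages are uncertain as proportions of mRNA. This was not tested.

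**Figure D3:**
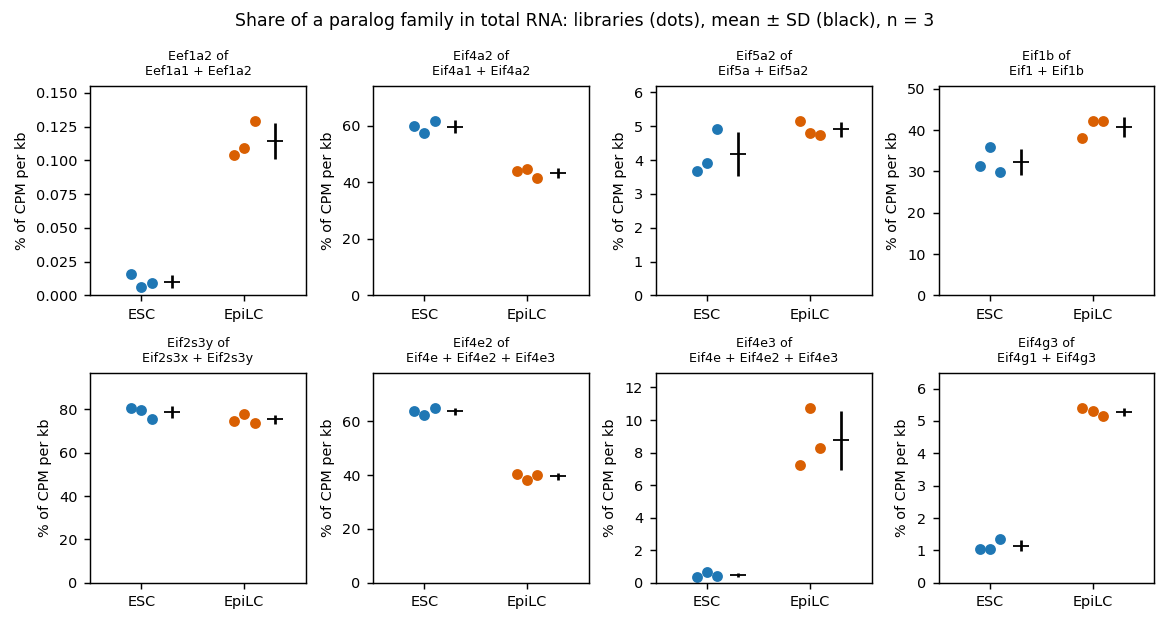
Share of the length-scaled total RNA (CPM per kb, in percent) of a paralog family taken by 1 member, in each ESC (blue) and EpiLC (orange) library, with mean and SD in black (n = 3); each axis starts at 0 and has its own range. Eif4e2 and Eif4a2 lie lower and Eif4e3, Eif4g3, Eif1b and Eef1a2 higher in all EpiLC libraries, while the dots of Eif5a2 and Eif2s3y overlap.

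Relative mRNA stability was the log2 ratio of total to 4sU level for libraries of the same number, and its change was tested as the interaction of cell type and RNA type. By this measure the members' mRNAs sat above most genes: the median was 0.77 in ESCs and 0.88 in EpiLCs, beside 0.03 and 0.15 over all tested genes and 0.29 and 0.37 over protein-coding genes. In ESCs 49 of 65 members (75.4%) lay above the median of all tested genes and 45 (69.2%) above that of protein-coding genes. In EpiLCs the counts were 45 (69.2%) and 44 (67.7%). The ratio was not adjusted for transcript length or uridine content, and the members' transcripts were shorter than those of protein-coding genes in general, with a median coding length of 1122 against 1416 nt and a median 3′ UTR of 639 against 1048 nt; their part in the result was not tested.

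Median stability ran over a wide range between roles, which was not tested. In ESCs the eIF3 genes had the highest median (1.87), with members from -1.59 to 2.91, and Eif3i the highest value of all members there, 2.91 ± 0.330 (SD, n = 3), while the eIF4E-binding inhibitors had the lowest median (-0.18). In EpiLCs the group of elongation factor modifiers had the highest median (1.62), above that of eIF3 (1.53), and the inhibitors again the lowest (-0.30). Eif1 was the least stable member in ESCs at -2.52 ± 0.377, with 48.4, 45.1 and 45.9 CPM in total RNA against 212, 263 and 339 CPM in nascent RNA. Next came Eif4a2 (-1.61 ± 0.189), Eif3j1 (-1.59 ± 0.0724) and Eif5 (-1.44), the GTPase-activating protein of eIF2. In EpiLCs Eif4a2 was the lowest at -2.37 ± 0.0931, followed by Eif1 at -2.12 ± 0.169. Eif1 has processed copies in the genome, so its unique reads are an incomplete measure of its level.

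**Figure D4:**
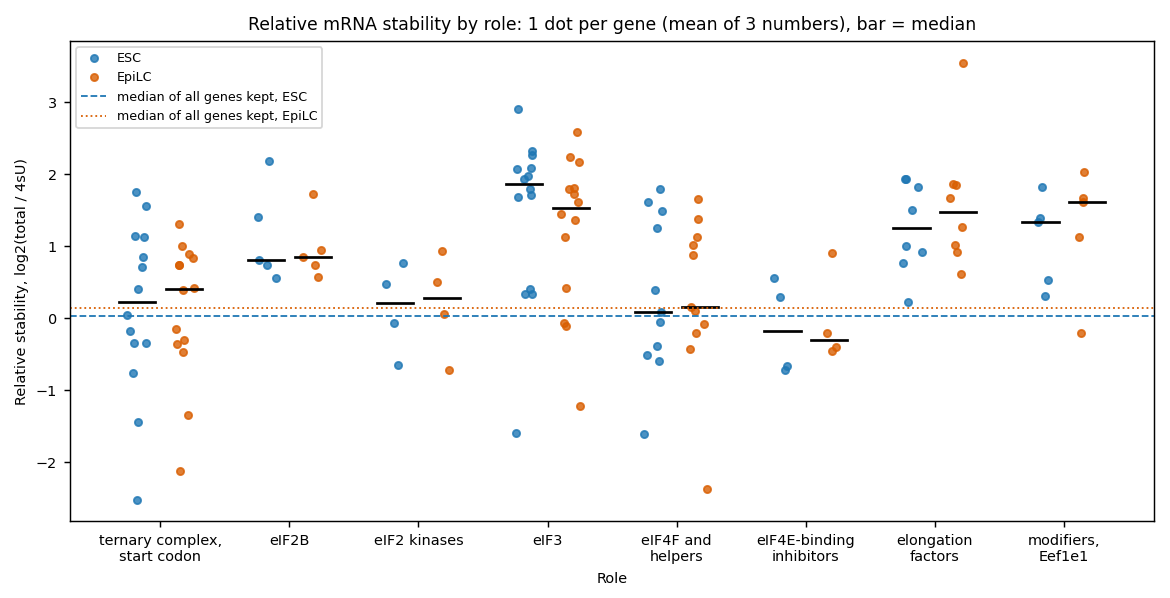
Relative mRNA stability, log2 of total over 4sU level, for each gene (dot, mean of 3 replicate numbers) in ESCs (blue) and EpiLCs (orange) by role, with the median of each group (black bar) and the medians of all tested genes (lines at 0.03 and 0.15). Dots of eIF3 and of the elongation factors lie mostly above 1, and Eif1 and Eif4a2 are the lowest.

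In the test of a stability change, 59 of the 65 members did not pass by adjusted p. Of the 65 members, 1 passed both thresholds, against 1.54% of all tested genes, and by adjusted p alone 2 rose (2.72% of all genes) and 4 fell (1.88%). These 2 and 4 became 1 and 10 with median-of-ratios scaling, 1 and 8 with scaling within each RNA type and 1 and 15 with DESeq2. They were 2 and 12 with the replicate number as a block and 4 and 20 without both ESC replicate 3 libraries. The count of members with lower stability thus moved with the scaling, the tool, the block and the ESC replicate 3 libraries. The shares of all tested genes under these settings are not given. Whether these counts set the members apart from genes in general cannot be told. Total and 4sU RNA were split from the same extracts, although the labels do not say that a number marks an extract. The median stability change was -0.10 for the members and 0.11 over all tested genes.

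Eif4a2 was the member whose stability call held in all 20 other settings. Its relative stability was -1.51, -1.83 and -1.49 in ESCs and -2.31, -2.33 and -2.48 in EpiLCs, without overlap, a change of -0.76 ± 0.10 (adjusted p = 0.00200; highest adjusted p in another setting 0.0126). None of the other settings changed how reads were counted. Eif4a2 was counted over 3197 exonic bases, against 2208 in 1 annotated transcript, and the part of this in the call was not tested. Eif3g, an RNA-binding subunit of eIF3, went from 262, 263 and 220.3 CPM to 171, 175 and 176 CPM in total RNA but from 67.3, 83.4 and 81.6 CPM to 79.2, 79.5 and 79.2 CPM in nascent RNA, where its groups overlapped. Its stability fell by 0.56 on the log2 scale (adjusted p = 0.0364), that of Eif3a, the largest eIF3 subunit, by 0.46 (adjusted p = 0.0304) and that of Eif2b5 by 0.45 (adjusted p = 0.0448), and these passed in 10, 14 and 12 of 20 other settings. Eif4g3 rose by 0.62 ± 0.17 (adjusted p = 0.0493) and passed in 6 of 20. The change of Eef1a2, 3.36 ± 0.85 (adjusted p = 0.0400), rested on 0 to 3 nascent reads per library, depends on the 0.5 reads added before the logarithm, and passed in 7 of the 16 other settings that gave it a p.

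**Figure D5:**
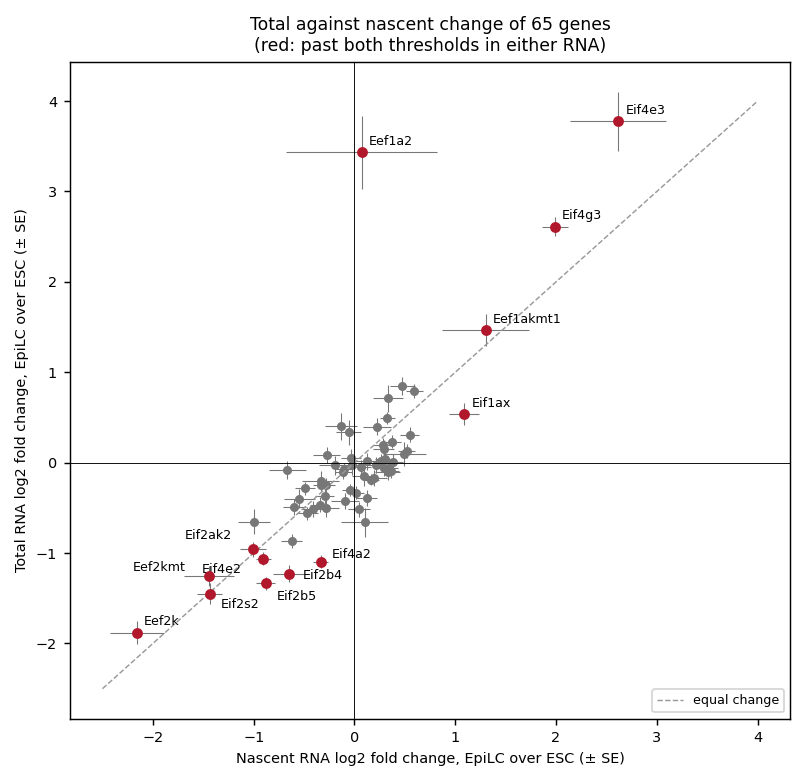
Log2 fold change (EpiLC over ESC) in total RNA against that in nascent RNA for the 65 tested genes, each with standard errors; red dots are genes past both thresholds in either RNA and the dashed line marks equal change. Most genes lie near the line; Eef1a2 lies far above it with the widest error in nascent RNA, and Eif4a2 lies below it.

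Textbook TOP mRNAs within the family were Eef1a1, Eef1b2, Eef1d, Eef1g, Eef2, Eif3e, Eif3f, Eif3h and Eif4b. The list was not drawn from the start-site search. Of these genes Eif3f alone had a tract at the annotated start, as Eif2s3x did outside the list. Within 10 bases Eef1a1 and Eif4b also had one, and Eef1b2 and Eef2 did not. Eef1d, Eef1g, Eif3e and Eif3h had no promoter entry. The listed mRNAs were abundant, moved little in total RNA and had a median stability above that of the other members. Their 9 total RNA changes ran from -0.24 to 0.19 on the log2 scale, and 2 passed by adjusted p, Eef1g and Eif3e, both lower. Their median level was 230.1 CPM per kb in ESCs, against 38.9 for the other 56 tested members. Their median relative stability was 1.83 in ESCs and 1.62 in EpiLCs, against 0.56 and 0.74 for the others. In ESCs the TOP members ran from 0.40 (Eif3f) to 2.10 and the others from -2.52 to 2.91. A high median was not particular to them: the eIF3 group, which includes Eif3e, Eif3f and Eif3h, stood at 1.87 in ESCs. The difference was not tested. The other 56 members held all 11 of those past both thresholds in total RNA.

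Around these factors, 45 further genes of the translation pathway were counted: regulators of cap binding, accessory initiation factors, eIF2 phosphatases, modifying enzymes, termination factors and the mitochondrial factors. All were tested; 12 rose and 14 fell in total RNA by adjusted p, or 26.7% and 31.1% beside 31.4% and 32.1% of all tested genes. In nascent RNA 14 rose and 12 fell, beside 23.7% and 28.8%, so the counts lay near those of genes in general. Larp1, which binds TOP mRNAs, rose from 149 ± 10.1 to 303 ± 10.1 CPM in total RNA (SD, n = 3; log2 change 1.03 ± 0.08, adjusted p = 3.95e-08). Mknk1, a kinase of eIF4E, fell from 25.9 ± 0.815 to 10.4 ± 1.57 CPM (-1.33 ± 0.12, adjusted p = 2.45e-07), and its nascent RNA fell by 1.68 on the log2 scale. Of the 9 mitochondrial translation factors 6 fell in total RNA, Mtif3 most (-1.03 ± 0.11, adjusted p = 1.13e-06), and Mtrf1 passed both thresholds in nascent RNA (-1.52 ± 0.28, adjusted p = 0.000368). Impact, which restrains the kinase GCN2, rose by 1.48 ± 0.15 in nascent RNA (adjusted p = 2.20e-06) and by 0.88 ± 0.13 in total RNA (adjusted p = 5.01e-05).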

How the data were processed

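The authors trimmed adapters with cutadapt 1.14, aligned 50 bp strand-specific reads to mm10 with STAR 2.5.3a, kept unique alignments and deposited raw read counts per GENCODE M14 gene, made with featureCounts 1.5.3. The deposited table had 51559 entries, of which 92 were spike-in sequences with 0 reads. Gene names and types came from GENCODE M21, which matched 99.6% of IDs. Library kits were given as a KAPA Stranded or HyperPrep kit, not per library.

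A linear model with 4 groups (2 cell types by 2 RNA types) was fitted across the 12 libraries by limma's voom method. TMM factors came from edgeR 4.0.16, the limma version was 3.58.1 and R was 4.3.3. A gene was tested if 3 or more libraries reached 3 CPM, and p-values were Benjamini-Hochberg adjusted over 14731 genes. Contrasts were EpiLC against ESC in total RNA, the same in nascent RNA, and the first minus the second for stability. Every adjusted p printed for a gene is from this fit unless another tool is named. CPM values are TMM-scaled, and levels are compared between genes only per kilobase of exon. Scripts were tested on simulated data. Counting error is the only error that read totals cover, since reads had no molecular identifiers.

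Members, role groups, pathway genes, TOP genes and markers were chosen with earlier results of these data known. The text names each member past both thresholds in any comparison, the largest total and stability changes per role, paralog family members, and the members of highest and lowest stability; the other genes were named after their values were seen. Alternatives were 3 other scalings, no expression filter (at least 1 read), edgeR's quasi-likelihood test, DESeq2 1.42.0, a replicate block, and leaving out each library or both ESC replicate 3 libraries, and for paralog shares no length scaling or, added after seeing the data, the length of 1 annotated transcript. Python 3.11.15, numpy 2.4.6, scipy 1.17.1, pandas 2.3.3 and matplotlib 3.10.9 were used.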

Additional observations from a re-analysis of the deposited data

Results flagged for a closer look

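There were 6 members whose total RNA change differed from their nascent change by the interaction test (limma-voom, adjusted p under 0.05), which is the stability change given above. Of the 65 tested members 2 were higher and 4 lower, beside 2.72% and 1.88% of all tested genes. The call of Eif4a2 held in all 20 other settings, and each of the other calls was lost in some settings. On the log2 scale the difference was 3.36 for Eef1a2, 0.62 for Eif4g3, -0.45 for Eif2b5, -0.46 for Eif3a, -0.56 for Eif3g and -0.76 for Eif4a2. The value of Eef1a2 rested on 0 to 3 nascent reads per library.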

How the results depend on the processing

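None of the 41 total, 39 nascent and 6 stability calls by adjusted p changed sign under the alternatives that gave a value, and 37, 24 and 1 of them passed in every one; Eif1 passed in 8 of 20 in total RNA, Eif3e in 15, and Eef2 in 16 of 20 in nascent RNA. The members past both thresholds numbered 10 to 12 in total RNA and 6 to 9 in nascent RNA over 20 alternatives, and the count in stability was 1 or 0, being 0 without an expression filter, with edgeR and with DESeq2, and 0 to 1 when a library was left out; Eef1a2, the member concerned, leaves the tested set by the filter itself when an EpiLC total library is left out. By adjusted p alone, members with higher nascent RNA numbered 12 without the filter. Members with higher stability numbered 1 with median-of-ratios scaling, with TMM within each RNA type and with DESeq2, 0 with no filter and with edgeR, 4 without both ESC replicate 3 libraries, and 0 to 3 with a library left out. At an unadjusted p under 0.05, 3 members had higher stability without the filter and with DESeq2, 7 with edgeR and 6 with limma-voom as reported, and Eef1a2 was the member beyond the fold threshold. Members with lower stability numbered 10, 8 and 15 with median-of-ratios scaling, TMM within each RNA type and DESeq2, 20 without both ESC replicate 3 libraries, and 1 (without ESC total replicate 2, any EpiLC total library, EpiLC 4sU replicate 1 or 2) to 15 (without ESC total replicate 3) with a library left out. The shares of all tested genes under the alternatives, the replicate block among them, are not given beside these counts.

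The median relative stability of the members in ESCs was 0.54 with library totals alone, 0.60 with TMM within each RNA type and 0.99 without the filter; in EpiLCs it was 0.73 with median-of-ratios scaling, 0.72 with library totals, 0.66 with TMM within each RNA type, 1.00 without the filter, and 0.72 to 0.88 with a library left out. Without length scaling the differences in paralog share were 0.121 percentage points for Eef1a2, -21.3 for Eif4e2, 3.60 for Eif4e3, 6.64 for Eif4g3 and 1.40 for Eif5a2; with the length of 1 annotated transcript per gene, chosen after seeing the data, they were -15.1 for Eif4e2, 3.73 for Eif4e3 and 6.15 for Eif4g3. The start-site tract count went from 2 to 18 when its first C could lie within 10 bases. The cause of these shifts was not tested.

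The labels number the libraries in each group and say that each extract was split, but not that a number marks an extract or a day. Same-numbered libraries of ESC and EpiLC correlated in their deviations from the group mean by -0.08 to -0.01 in total RNA and -0.05 to -0.02 in 4sU RNA. Same-numbered total and 4sU libraries correlated by 0.16 to 0.41 in ESCs and 0.02 to 0.07 in EpiLCs. Differently numbered ones gave -0.39 to 0.29 in ESCs and -0.08 to 0.05 in EpiLCs. ESC total replicate 1 correlated more with ESC 4sU replicate 2 (0.29) than with ESC 4sU replicate 1 (0.16). Whether the numbers pair the ESC libraries therefore cannot be told, and no pairing was seen in the others. With the replicate block 11 members passed both thresholds in total RNA, 9 in nascent RNA and 1 in stability, and 12 had lower stability by adjusted p. Single calls lost elsewhere were the nascent calls of Eif2ak2 (13 of 20 alternatives), Eef1akmt1 (2 of 20) and Eif1ax (1 of 20), and the total call of Eif4e2 (1 of 20). Nascent libraries have the lower depth, which limits the nascent and stability values.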
